A study of Mus musculus with 12 samples.

Results

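Transcripts of Pf4, Ppbp, Gp1ba, Gp1bb, Gp9, Itga2b, Itgb3, Gp6, Treml1 and Tubb1 are commonly used to mark platelets and the megakaryocytes that shed them. The 10 genes were taken by symbol from the count tables, out of 52553 features in all, and every one of them was present and passed the filter on low counts that left 20135 features for testing. RNA-seq had been run on cells captured with magnetic beads against CD115, the receptor for the growth factor CSF1 that marks monocytes, in a study of how the spleen bears on the regrowth of the liver. Male C57BL/6 mice were either intact, with both spleen and liver in place, or had lost 70% of the liver 24 h earlier with the spleen left in place. Mononuclear cells of peripheral blood or spleen were prepared on a density gradient before capture, and each library held the cells of 5 pooled mice. There were 3 libraries in each of 4 groups (intact spleen, resected spleen, intact blood, resected blood), 12 in all. No transgene or knockout was used. The labels do not say that the libraries came from separate cell preparations beyond the pooling, so the p-values measure the spread between these libraries. No library of sham-operated mice was used here, so anaesthesia, laparotomy and liver loss cannot be told apart.

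Platelets carry no nucleus, and their RNA is inherited from the megakaryocyte. They can adhere to monocytes through P-selectin. Pf4 and Ppbp encode chemokines stored in the alpha granules, Gp1ba, Gp1bb and Gp9 encode chains of the receptor for von Willebrand factor, Itga2b and Itgb3 encode the 2 chains of the fibrinogen receptor, Gp6 encodes the collagen receptor, Treml1 encodes a receptor of the alpha granule membrane, and Tubb1 encodes the beta-tubulin of the platelet's marginal band. Pf4 is also known from some macrophages, and Itgb3, which also pairs with another alpha chain, from macrophages and other cells. In such bulk libraries, fewer cells of a type and less RNA per cell cannot be told apart.

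Pf4 and Ppbp lie next to each other on chromosome 5, with the same orientation, and their levels parted after liver resection (below, in the chemokine results). The bases in front of both genes are therefore shown. The sequences are those of RefSeq on build GRCm38.p6, 250 bases before the annotated start of each gene, written 5′ to 3′. Capitals mark matches to GGAAG (a core bound by ETS factors) on either strand.
Pf4 (chr5:90772185-90772434, plus strand): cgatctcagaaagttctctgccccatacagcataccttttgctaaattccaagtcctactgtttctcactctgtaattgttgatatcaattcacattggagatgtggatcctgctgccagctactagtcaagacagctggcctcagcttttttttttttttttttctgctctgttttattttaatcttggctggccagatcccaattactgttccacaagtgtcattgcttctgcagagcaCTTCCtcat
Ppbp (chr5:90768268-90768517, plus strand): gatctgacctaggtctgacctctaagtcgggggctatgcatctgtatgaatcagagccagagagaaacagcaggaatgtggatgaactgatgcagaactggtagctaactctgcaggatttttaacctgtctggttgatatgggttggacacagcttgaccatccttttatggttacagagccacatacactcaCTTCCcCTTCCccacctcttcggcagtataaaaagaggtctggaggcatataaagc

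The search covered 300 bases per gene, from 250 before to 50 after the start, and 9 of the 10 genes had an entry (all except Itgb3). GGAAG was found in 9 of 9 of these windows, where 71.4% of the 32851 windows in the table held it. AGATAA and TGATAA are among the letters bound by GATA factors such as GATA1. A match to either, on either strand, was found in 3 of 9 (Pf4, Gp1ba and Gp6), against 18.6% of all windows. The same 3 held both GGAAG and a GATA match, against 12.5%. In Pf4 the match began 36 bases after the start and is in capitals in the stretch around it.
Pf4, match after the start (chr5:90772459-90772484, plus strand): ggcaggcagtgaAGATAAaacgtgct
Neither AGATAA nor TGATAA was found in the Ppbp window, and other forms of the GATA and ETS motifs were not searched. A match describes the letters of a window and is no evidence of binding.

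Library totals ran from 36990033 to 46401368 estimated counts. Levels are given as CPM, the counts scaled to library size and TMM factors, and 3 counts, taken as the limit of counting, corresponded to 0.0626 to 0.102 CPM. Differences are log2 fold changes from edgeR's quasi-likelihood test, each with its standard error, and calls needed an absolute log2 fold change above 1 and an adjusted p (Benjamini-Hochberg, over all tested features) under 0.05. One library stood apart: intact blood library 3 was the lowest of its group for all 10 genes, and intact blood library 1 was the highest for all 10. The ratio of highest to lowest library ran from 2.23 to 4.05 over the genes in intact blood and from 1.11 to 1.59 in resected blood. Haemoglobin transcripts made up 33.1%, 25.6% and 13.2% of gene counts in intact blood libraries 1, 2 and 3, so the same library was lowest for red cell RNA. Their part in the platelet values was not tested.

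**Figure D1:**
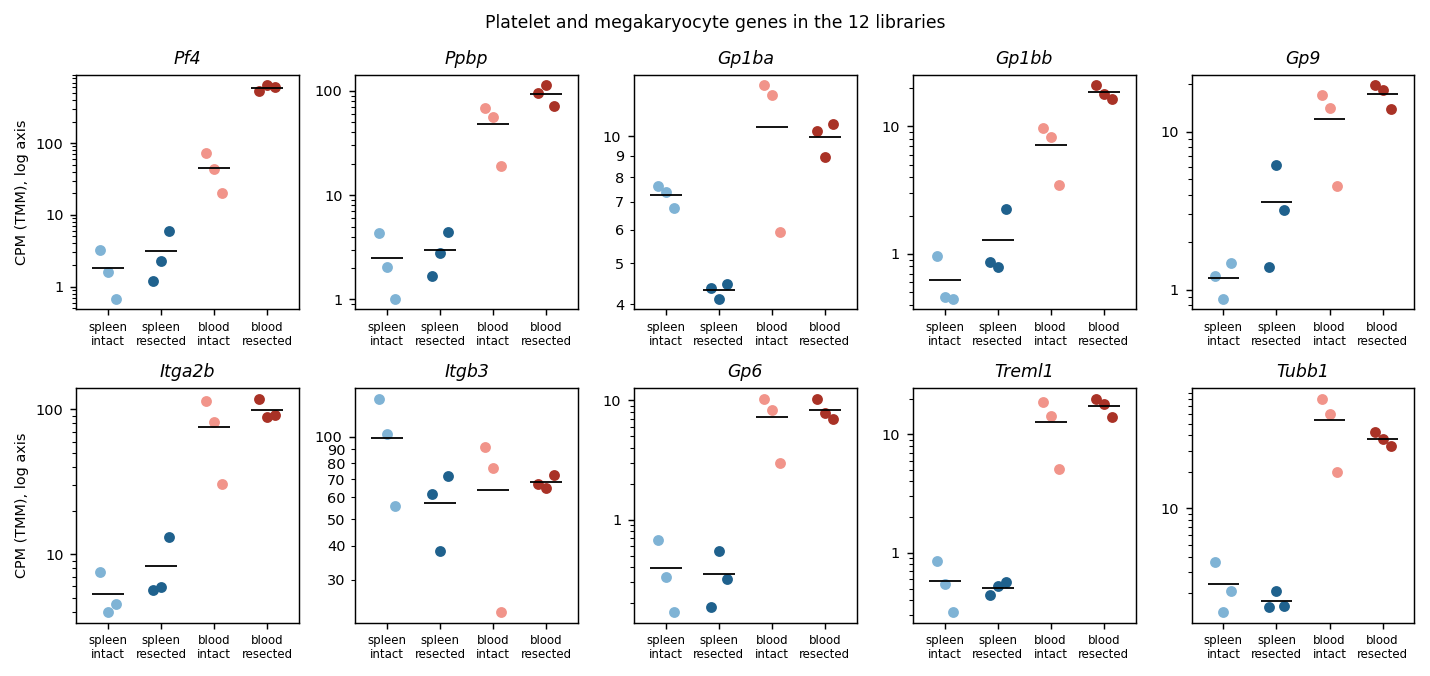
Level of each of the 10 genes in the 12 libraries (vertical axes, CPM after TMM scaling, log scale, with a range of its own for each gene; points, libraries 1 to 3 from left to right; lines, group means). For 8 genes all 6 blood libraries lie above the intact spleen libraries, while Itgb3 and Gp1ba do not separate intact blood from intact spleen, and Pf4 alone of the 10 was called higher in resected than in intact blood.

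The genes of the set were far higher in blood than in spleen. In intact animals 8 of the 10 were called higher in blood and none lower, with a median log2 fold change of 4.0 over the 10. Of all features 7.35% were called, 3.86% higher and 3.49% lower, and their median was -0.02. After resection 9 were called higher in blood and none lower, with a median of 4.13, against 13.2% of all features called, 6.28% higher and 6.87% lower, with a median of -0.14. The genes called were also those whose blood libraries all lay above the spleen libraries, 8 of 10 in intact and 9 of 10 in resected animals, and none had all of them below. Of all features 13.6% and 17.2% had blood libraries above every spleen library in the 2 states, and 20.9% and 25.1% below. Within blood, resection was followed by a called rise in 1 gene, Pf4, with a median over the 10 of 0.43, or 0.04 without intact blood library 3 (all features, 13.9% called, 7.8% higher and 6.11% lower, median -0.10). Within spleen, 0 of the 10 were called by edgeR (all features, 1.38% called, 0.78% higher and 0.596% lower, median 0.05), while 2 had an unadjusted p under 0.05 and DESeq2 also called 0. Summed over the set, the genes held 0.0146% to 0.0415% of gene counts in intact blood, 0.0673% to 0.0733% in resected blood, 0.00913% to 0.0212% in intact spleen and 0.00719% to 0.0123% in resected spleen.

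**Figure D2:**
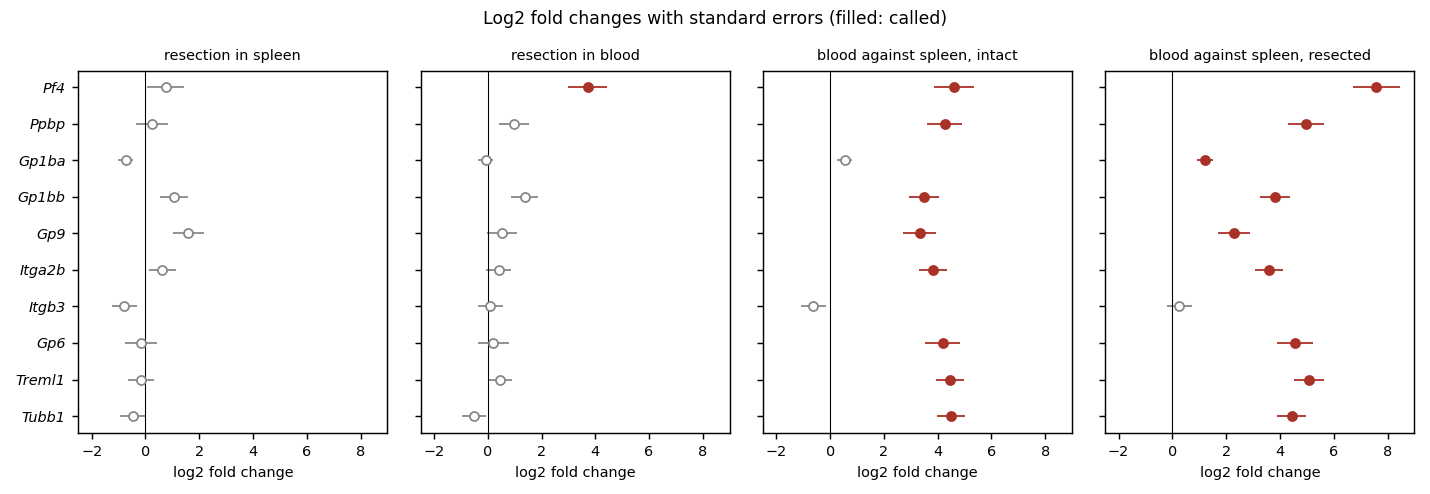
Log2 fold change of each of the 10 genes (horizontal axes, points with standard errors; filled, called by edgeR) for resection in spleen, resection in blood, and blood against spleen in intact and in resected animals. Only Pf4 is called for resection in blood, at 3.71, and none for resection in spleen, while 8 and 9 genes are called for blood against spleen.

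Pf4, platelet factor 4, had the largest change of the 10 with resection in blood. Its level was 72.7, 43.8 and 20.2 CPM in intact blood libraries 1 to 3 and 537, 643 and 611 CPM in resected blood. The lowest resected library lay far above the highest intact one. The means were 45.6 ± 26.3 and 597 ± 54.1 CPM (SD, n = 3), and the log2 fold change was 3.71 (SE 0.71, adjusted p = 0.00656, edgeR), or 13.1-fold. The call held without any single one of the 12 libraries, with values from 3.35 to 4.25, the lowest of them without intact blood library 3.

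In spleen Pf4 was low in both states. It measured 3.24, 1.61 and 0.681 CPM in intact spleen and 1.19, 2.25 and 5.88 CPM in resected spleen, and the libraries of the 2 states overlapped. The log2 fold change of 0.75 (SE 0.68, adjusted p = 0.58, edgeR) did not pass and became -0.10 without resected spleen library 3, the highest of its group. Blood exceeded spleen by 4.62 on the log2 scale in intact animals (SE 0.75, adjusted p = 0.00701, edgeR) and by 7.59 after resection (SE 0.86, adjusted p = 0.000794, edgeR), which is 192-fold. The resection effect on Pf4 was larger in blood than in spleen by 2.96 (SE 0.95), with an unadjusted p of 0.0107 and an adjusted p of 0.186 in edgeR, so this difference did not pass. DESeq2 called it, at 2.99 with an adjusted p of 0.0239. For this difference 0.283% of all features were called by edgeR, 0.219% higher and 0.0646% lower, and 0 of the 10 platelet genes (1 with an unadjusted p under 0.05).

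Ppbp, the precursor of the neutrophil-attracting platelet peptide NAP-2, measured 67.9, 56.4 and 18.8 CPM in intact blood and 95.3, 113 and 71.0 CPM in resected blood. The 3 resected libraries were all above the intact ones, by a small margin. The log2 fold change was 0.97 (SE 0.57) with an adjusted p of 0.252 in edgeR, and it was 0.58 without intact blood library 3. The spleen held 4.36, 2.05 and 1.02 CPM when intact and 1.66, 2.77 and 4.42 CPM after resection, with overlap. Ppbp was higher in blood by 4.27 in intact animals (SE 0.65, adjusted p = 0.00539, edgeR) and by 4.98 after resection (SE 0.67, adjusted p = 0.00164, edgeR).

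Within a library the ratio of Pf4 to Ppbp counts does not depend on scaling. It was 1.07, 0.777 and 1.07 in intact blood libraries 1 to 3, and 5.64, 5.68 and 8.60 in resected blood. In spleen it was 0.745, 0.788 and 0.673 when intact and 0.722, 0.812 and 1.33 after resection. The resected blood libraries thus stood apart from the other 9. On the log2 scale the ratio was -0.05 ± 0.27 in intact and 2.70 ± 0.35 in resected blood (SD, n = 3), a difference of 2.75 or 6.75-fold. An exact two-sided permutation test gave p = 0.1, the smallest value that 3 against 3 libraries allow, so no such comparison can pass 0.05. The exact p was also 0.1 for resected blood against resected spleen (2.82), and 0.2 for intact blood against intact spleen (0.39) and 0.4 for resection in spleen (0.33). These were 4 of 8 ratio comparisons made.

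**Figure D3:**
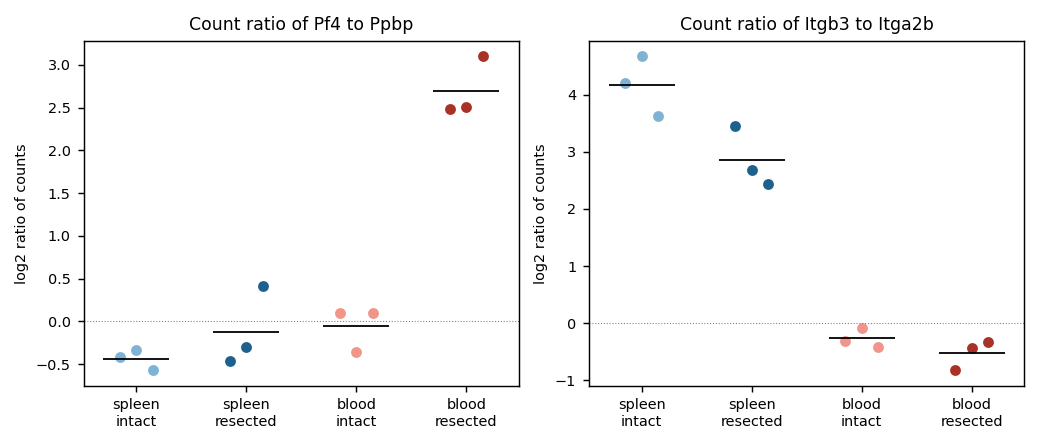
Ratio of Pf4 to Ppbp counts (left) and of Itgb3 to Itga2b counts (right) in each library on a log2 scale (vertical axes), by group; lines are group means and the dotted line marks equal counts. Resected blood alone has high Pf4 to Ppbp ratios, with a mean of 2.70, and both spleen groups have Itgb3 to Itga2b ratios above those of blood, with means of 4.16 and 2.86.

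Pf4 also took a larger share of the counts of the 10 genes. It held 14.6%, 11.6% and 15% of them in intact blood and 57.0%, 63.2% and 65.0% in resected blood. The 8 genes other than Pf4 and Itgb3 summed to 226 ± 123 CPM in intact and 302 ± 40.9 CPM in resected blood, and to 20.2 ± 5.76 and 23.0 ± 6.99 CPM in intact and resected spleen (SD, n = 3). Per kilobase of transcript, Pf4 had the highest level of the 10 in blood in both states, at 77.5 CPM per kb when intact and 1020 CPM per kb after resection, and Ppbp came next at 44.0 and 86.0 CPM per kb. In intact blood these neighbours in the order overlapped in their CPM.

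The von Willebrand factor receptor is built from the chains GPIb alpha, GPIb beta and GPIX. Gp1bb, the GPIb beta gene, measured 9.63, 8.25 and 3.45 CPM in intact blood and 21.0, 18.0 and 16.3 CPM in resected blood. All resected libraries lay above all intact ones. The log2 fold change was 1.37 (SE 0.51) and the adjusted p 0.0812 in edgeR, so it was not called, although DESeq2 called it (1.39, adjusted p = 0.0298) and so did edgeR without resected spleen library 3 (1.37, adjusted p = 0.0479). It was 1.04 without intact blood library 3. In all, 3 of the 10 genes (Pf4, Ppbp and Gp1bb) had resected blood libraries above every intact one, against 19.4% of all features, and 0 had them below (19.0%).

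Gp1bb is transcribed from the same strand as its neighbour Septin5, which encodes a septin of secretory cells, and the 2 genes can share a transcript, so that reads could be divided between them. Septin5 was higher in resected blood (6.19, 6.90 and 21.5 CPM) than in intact blood (2.01, 3.08 and 0.568 CPM), by 2.61 on the log2 scale (SE 0.69, adjusted p = 0.0246, edgeR), a call that was lost without intact blood library 1 (2.67) or resected blood library 3 (1.80). It did not follow the tissue, with a blood against spleen log2 fold change of -0.52 in intact and -0.40 in resected animals. For Gp1bb that comparison gave 3.50 (SE 0.56, adjusted p = 0.00633, edgeR) and 3.83 (SE 0.56, adjusted p = 0.00231, edgeR). The spleen libraries of Gp1bb held 0.968, 0.459 and 0.447 CPM when intact and 0.864, 0.786 and 2.24 CPM after resection, and overlapped. How the counting treated shared reads is not given in the sources used here.

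Gp1ba, the ligand-binding GPIb alpha chain, differed from its partners in how little it separated the tissues. Its level was 7.62, 7.37 and 6.75 CPM in intact spleen, 4.37, 4.13 and 4.47 CPM in resected spleen, 13.2, 12.5 and 5.92 CPM in intact blood, and 10.3, 8.93 and 10.7 CPM in resected blood. Resected spleen was lowest and did not overlap with any other group. The fall in spleen, -0.74 (SE 0.28), did not pass, with an adjusted p of 0.168 in edgeR. Without intact blood library 3 the fall was -0.75 with an adjusted p of 0.0177 in edgeR. It then missed only the limit on the fold change. Gp1ba was the 1 gene of the 10 whose resected spleen libraries were all below the intact ones, where 17.7% of all features had that order, and none of the 10 had the resected libraries all above (17.4%). Blood exceeded spleen by 0.54 in intact animals (SE 0.28, adjusted p = 0.256, edgeR). Without intact blood library 3 this was 0.93 with an adjusted p of 0.00665 in edgeR, again short of the fold limit only. After resection blood was higher by 1.21 (SE 0.28, adjusted p = 0.0166, edgeR), the smallest of the 9 called differences. With resection in blood Gp1ba changed by -0.08 (SE 0.28, adjusted p = 0.868, edgeR).

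Gp9, the GPIX chain, measured 17.2, 14.2 and 4.52 CPM in intact blood and 19.7, 18.5 and 14 CPM in resected blood. The groups overlapped, with a log2 fold change of 0.54 (SE 0.56, adjusted p = 0.53, edgeR). The spleen libraries held 1.22, 0.877 and 1.47 CPM when intact and 1.38, 6.18 and 3.20 CPM after resection. Resected spleen library 1 lay within the intact range and the other 2 above it, and the log2 fold change of 1.59 (SE 0.58, adjusted p = 0.157, edgeR) was the largest of the 10 for resection in spleen. Part of these counts came from 2 rows that the tables list by transcript accession and that were added to the gene, with 7 to 30 counts per library in intact spleen, 38 to 156 in resected spleen and 4 to 17 in blood. Without them the log2 fold change in spleen was 1.04. Gp9 was higher in blood by 3.33 in intact animals (SE 0.61, adjusted p = 0.0118, edgeR) and by 2.28 after resection (SE 0.59, adjusted p = 0.0244, edgeR), which became 3.28 without the accession rows. These were the least stable calls of the set: the first was lost without intact spleen library 1 (3.45) or 2 (3.26), and the second without resected spleen library 1 (1.99) or 3 (2.30) or resected blood library 1 (2.28) or 2 (2.32).

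The 2 chains of the fibrinogen receptor behaved differently across tissues. Itga2b, the alpha IIb chain (CD41), measured 114, 81.4 and 30.5 CPM in intact blood and 119, 88.3 and 91.1 CPM in resected blood, and the groups overlapped. Its log2 fold change with resection was 0.40 (SE 0.48, adjusted p = 0.591, edgeR) and 0.01 without intact blood library 3. In spleen it measured 7.53, 3.99 and 4.51 CPM when intact and 5.63, 5.92 and 13.2 CPM after resection, again with overlap. Blood was above spleen by 3.82 in intact animals (SE 0.53, adjusted p = 0.00362, edgeR) and by 3.59 after resection (SE 0.53, adjusted p = 0.00235, edgeR).

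Itgb3, the beta 3 chain (CD61), was the only gene of the 10 that was called in none of the comparisons. Its level was 138, 102 and 55.9 CPM in intact spleen, 61.7, 38.1 and 71.9 CPM in resected spleen, 92.1, 76.9 and 22.9 CPM in intact blood, and 67.2, 65.2 and 72.2 CPM in resected blood. Every pair of groups overlapped, with resected blood in a narrow band. The blood against spleen difference was -0.63 in intact animals (SE 0.47, adjusted p = 0.453, edgeR) and 0.25 after resection (SE 0.47, adjusted p = 0.757, edgeR). Resection gave -0.79 in spleen (SE 0.47, adjusted p = 0.381, edgeR) and 0.09 in blood (SE 0.47, adjusted p = 0.913, edgeR; -0.32 without intact blood library 3).

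Counts of Itgb3 exceeded those of Itga2b 18.3, 25.5 and 12.3 times in intact spleen libraries and 10.9, 6.42 and 5.41 times in resected spleen. In blood the ratio was below 1 in every library, at 0.804, 0.944 and 0.751 when intact and 0.565, 0.738 and 0.793 after resection. No spleen library overlapped with a blood library. On the log2 scale the mean ratios were 4.16 ± 0.52, 2.86 ± 0.53, -0.27 ± 0.17 and -0.53 ± 0.26 in intact spleen, resected spleen, intact blood and resected blood (SD, n = 3). Exact two-sided permutation tests gave the smallest possible p of 0.1 for blood against spleen in intact (-4.43) and resected animals (-3.39) and for resection in spleen (-1.31), and 0.2 for resection in blood (-0.26). Itgb3 alone held 76.2% to 84.6% of the counts of the 10 genes in intact spleen and 60.2% to 78.1% in resected spleen, but 17.1% to 20.4% in intact and 6.41% to 7.68% in resected blood. Per kilobase it had the highest mean of the 10 in spleen, at 17.1 ± 7.15 CPM per kb when intact and 9.89 ± 2.99 CPM per kb after resection (SD, n = 3). The next by mean was Pf4, at 3.13 ± 2.20 and 5.28 ± 4.18 CPM per kb (SD, n = 3). Gp1ba at 2.67 in intact and Gp9 at 4.07 in resected spleen lay within that spread, so second place was not separated. After resection the spreads of Itgb3 and Pf4 also overlapped, so first place was not separated there.

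Gp6, Treml1 and Tubb1 were called higher in blood than in spleen in both states and did not pass for resection in either tissue. Gp6, which signals when platelets meet collagen, was the lowest of the 10 per kilobase in blood, at 1.22 CPM per kb in intact and 1.40 CPM per kb in resected animals. It measured 10.3, 8.32 and 2.97 CPM in intact blood, 10.2, 7.74 and 6.95 CPM in resected blood, 0.673, 0.334 and 0.170 CPM in intact spleen, and 0.187, 0.546 and 0.320 CPM in resected spleen. The 2 states overlapped within each tissue, and every blood library was above every spleen library. The blood against spleen differences were 4.18 in intact (SE 0.66, adjusted p = 0.0061, edgeR) and 4.55 in resected animals (SE 0.67, adjusted p = 0.00236, edgeR).

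Treml1, encoding the receptor TLT-1 that reaches the platelet surface on activation, measured 18.6, 14.3 and 5.11 CPM in intact and 20.0, 17.9 and 14.1 CPM in resected blood. The spleen libraries were all under 1 CPM, at 0.863, 0.543 and 0.319 CPM when intact and 0.444, 0.524 and 0.565 CPM after resection. Both pairs of groups overlapped. Treml1 was higher in blood by 4.45 (SE 0.53, adjusted p = 0.00196, edgeR) in intact animals and by 5.08 (SE 0.54, adjusted p = 0.000624, edgeR) after resection, the smallest adjusted p of the set.

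Tubb1, the platelet beta-tubulin, was the one gene of this group with a lower mean in resected blood. It measured 80.6, 60.4 and 19.9 CPM in intact and 42.7, 37.1 and 33.0 CPM in resected blood, so the resected values lay inside the intact range. The log2 fold change was -0.51 (SE 0.46, adjusted p = 0.459, edgeR) and -0.91 without intact blood library 3, where the adjusted p was 0.0763. In spleen Tubb1 measured 3.64, 1.40 and 2.09 CPM when intact and 1.54, 2.10 and 1.57 CPM after resection. Blood exceeded spleen by 4.49 in intact (SE 0.53, adjusted p = 0.00196, edgeR) and by 4.43 in resected animals (SE 0.53, adjusted p = 0.000983, edgeR). The log2 fold changes with resection in blood that did not pass for the remaining genes were 0.46 (SE 0.45) for Treml1 and 0.21 (SE 0.58) for Gp6, with adjusted p of 0.509 and 0.835 in edgeR.

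Wider lists of platelet genes, 4 in number, were read beside the set, by function. Over all features, calls for resection were 7.8% higher and 6.11% lower in blood, and 0.78% and 0.596% in spleen. For blood against spleen they were 3.86% higher and 3.49% lower in intact, and 6.28% and 6.87% in resected animals. Of 11 other platelet receptors, 7 were called higher in blood than in spleen in intact animals and 7 after resection, with none lower and list medians of 2.24 and 2.52. Gp5, which joins the von Willebrand factor receptor, measured 15.1, 11.9 and 5.46 CPM in intact blood and 0.715, 0.459 and 0.511 CPM in intact spleen, a log2 fold change of 4.26 (SE 0.43, adjusted p = 0.00107, edgeR), and 4.17 after resection. Mpig6b, an inhibitory platelet receptor, gave 4.42 and 5.32. With resection in blood 2 of the 11 were called lower and none higher, with a median of 0.17. These were Tbxa2r, the thromboxane receptor, from 6.41, 7.84 and 14.7 to 2.90, 2.17 and 1.27 CPM (-2.19, SE 0.40, adjusted p = 0.00535, edgeR), and F2rl3, a thrombin receptor, from 0.963, 0.848 and 4.46 to 0.610, 0.476 and 0.422 CPM (-2.05, SE 0.63, adjusted p = 0.0423, edgeR). For both, intact blood library 3 was the highest library, the reverse of its place for the 10 genes. The Tbxa2r call held without any single library (-2.45 to -1.76), while the F2rl3 call held in 2 of 12 such fits and its value was -0.85 without intact blood library 3. In spleen none was called with resection (median 0.34), or 2 higher and 1 lower without intact blood library 3, since the spread is estimated over all 4 groups together.

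Among the platelet lists, granule cargo had the highest median with resection in blood. Of its 10 genes 5 were called higher and none lower, with a median of 1.66 (all features, 7.8% higher and 6.11% lower). Selp, the P-selectin gene, rose from 70.7, 20.7 and 28.2 to 273, 323 and 256 CPM (2.83, SE 0.66, adjusted p = 0.0146, edgeR). Its lowest intact blood library was library 2, whereas all 10 genes of the set were lowest in library 3. The cell source of the Selp rise was not tested. F5, coagulation factor V, rose from 285, 124 and 96.2 to 509, 509 and 658 CPM (1.73, SE 0.44, adjusted p = 0.0209, edgeR). The other 3 were F13a1 (2.10), Sparc (2.04) and Thbs1 (3.90), and F5, F13a1 and Thbs1 are also known from monocytes and macrophages. Without intact blood library 3 the count was 3, with F13a1 at 1.79 and Thbs1 at 3.49 no longer called. The Selp call held in 12 of 12 fits that left out 1 library (2.52 to 3.59), that of Sparc in 10, of F5 in 9, of F13a1 in 8 and of Thbs1 in 3. Vwf, the ligand of the GPIb receptor, had means of 43.1 and 46.5 CPM in intact and resected blood. The cargo genes not called for resection in blood were Vwf at 0.11, Mmrn1 at 0.40, Clu at 0.74, Serpine2 at 1.60 and Pdgfb at -1.01. Blood against spleen called 5 higher and 1 lower in intact animals (median 1.35; Clu 3.92, F5 3.19, Serpine2 -3.45, the last of which lost its call without intact blood library 3, at -2.92) and 7 higher and 1 lower after resection (median 2.91; F5 4.77, Clu 4.29, Pdgfb -2.60). Resection in spleen called none (median 0.40).

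Among 11 cytoskeletal and signalling genes of platelets, 3 were called higher with resection in blood, against 7.8% of all features. They were Plek, encoding pleckstrin (2.30, SE 0.38, adjusted p = 0.00369, edgeR), Ptgs1, encoding cyclooxygenase 1 (2.49, SE 0.42, adjusted p = 0.00399, edgeR), and Tbxas1, encoding thromboxane synthase (1.30), all of which are expressed by myeloid cells too. The calls of Plek and Ptgs1 held without any single library, and that of Tbxas1 in 3 of 12 such fits. The list median was 0.32, and 0.11 in spleen, where none was called. Without intact blood library 3 the blood median was 0.07 with 2 genes called higher, and 1 was called higher in spleen. Blood against spleen called 4 higher in intact animals (median 0.22) and 5 after resection (median 0.85), with none lower. Of all features 3.86% and 6.28% were called higher in these comparisons. The smallest p-values belonged to Myl9, a myosin light chain (4.44 and 4.81), and Alox12, the platelet lipoxygenase (4.29 and 4.73). Myl9 measured 47.9, 37.6 and 14 CPM in intact blood and 56.6, 42.1 and 33.5 CPM in resected blood, and the groups overlapped.

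The transcription factors that direct megakaryocyte formation did not follow the platelet genes. Of 8, none was called for resection in blood (median 0.15), for resection in spleen (median 1.51, or 1 called higher without intact blood library 3) or for blood against spleen in intact animals (median -0.04). After resection 4 were called lower in blood than in spleen and none higher, with a median of -1.30 (all features, 6.87% lower and 6.28% higher). Gata1 had 11.4, 67.1 and 38.1 CPM in resected spleen and 4.67, 4.62 and 3.49 CPM in resected blood (-3.19, SE 0.74, adjusted p = 0.016, edgeR), and Tal1 and Zfpm1 gave -3.50 and -2.23. The fourth was Gfi1b (-2.26), whose call was lost without intact blood library 3 (-2.16). These factors also direct erythroid cells, and the summed level of 10 erythroid genes rose beside them in spleen, from 724 to 3450 CPM in intact to 7590 to 33000 CPM in resected libraries. That list had positive log2 fold changes in 10 of 10 genes for resection in spleen (median 2.90), none of them called, or 5 called higher without intact blood library 3. Its part in the factors' values was not tested.

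**Figure D4:**
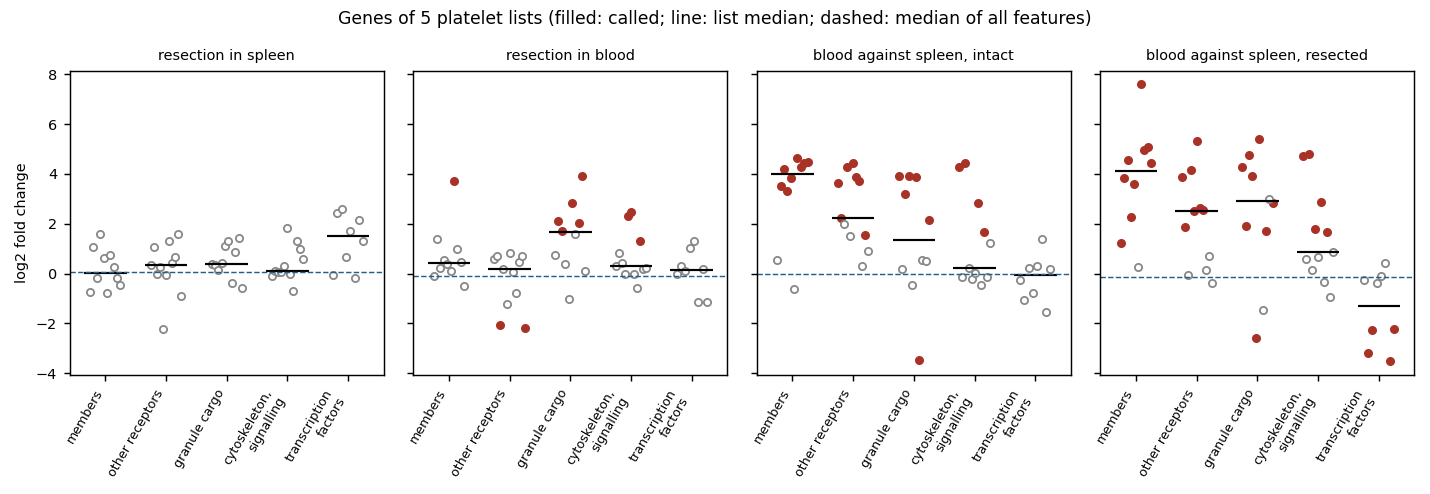
Log2 fold changes (vertical axis) of the 10 platelet genes and of 4 further lists, 1 point per gene, in the 4 comparisons; filled points were called by edgeR, black lines are list medians and dashed lines the medians over all features. Blood against spleen raises the 10 genes to medians of 4.0 and 4.13, granule cargo has the highest of the 5 medians for resection in blood at 1.66, and transcription factors have a median of -1.30 for blood against spleen after resection.

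Several lists of other cells moved with resection in blood, where Pf4 rose. Of all features 7.8% were called higher and 6.11% lower in that comparison. Markers of resident and peritoneal macrophages, a list added after values had been seen, were called higher in 6 of 10 genes with none lower (median 2.09), and their sum ran from 352 to 777 CPM in intact and from 2340 to 2520 CPM in resected blood. None of its genes was at the limit of counting throughout a group. Prg4, encoding lubricin, measured 508, 146 and 285 CPM in intact and 1720, 1610 and 1650 CPM in resected blood, but 1.77, 1.94 and 1.19 CPM in intact spleen (resection in blood, 2.41, SE 0.39, adjusted p = 0.00341, edgeR). Cd163, a macrophage scavenger receptor, gave 3.67. The list was called higher in blood than in spleen in 6 and 8 of 10 genes in intact and resected animals (all features, 3.86% and 6.28%). For resection in spleen none was called higher (all features, 0.78%), or 2 without intact blood library 3. Its sums in spleen were 221 to 348 and 244 to 904 CPM. The part of macrophage RNA in the Pf4 values was not tested.

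Of the monocyte markers 5 of 10 were called higher and 1 lower with resection in blood, against 7.8% and 6.11% of all features. Their sums were 3530 to 9070 and 13700 to 16100 CPM, in which Lyz2 alone had means of 4580 and 7650 CPM. Adgre1, the F4/80 antigen gene, gave 3.13. Of the 10 log2 fold changes 8 were positive and 2 negative. The negative ones were Cx3cr1 at -2.20 (SE 0.53, adjusted p = 0.0165, edgeR), the gene called lower, and Ly6c2 at -0.57, not called. Ly6c2 measured 77.0, 70.0 and 13.4 CPM in intact blood libraries 1 to 3 and 31.0, 41.6 and 35.2 CPM in resected blood. Only intact library 3 lay below the resected libraries. Ccr2 gave 0.16, also not called. Neutrophil markers were called higher in 10 of 10 (101 to 299 and 3320 to 17000 CPM) and red pulp macrophage markers in 4 of 5 (68.8 to 372 and 1100 to 1400 CPM). Of the latter, Hmox1 and Cd5l (not called) had means of 697 and 529 CPM in resected blood. Vcam1 and Spic had 3.55 and 3.98 CPM there, against 955 and 98.2 CPM in resected spleen. Blood against spleen called 4 of these 5 lower in intact and 3 in resected animals, with none higher (all features, 3.49% and 6.87% lower). Without intact blood library 3 the neutrophil count was 7 and the monocyte count 3 higher and 2 lower. T-cell markers were called lower in 3 of 3 (236 to 728 and 48.4 to 95.7 CPM; 2 without that library), B-cell markers in none of 4 (407 to 1840 and 552 to 1440 CPM), and erythroid markers in none of 10 (124000 to 405000 and 218000 to 530000 CPM). Of 4 progenitor markers 1 was called higher (7.23 to 20.2 and 15 to 23.7 CPM), too few to set against the 7.8% of all features. The monocyte markers summed to 2800 to 3010 CPM in intact spleen, below the B-cell markers there (3250 to 3700 CPM). Csf1r, which encodes CD115 itself, had means of 453 and 898 CPM in intact and resected spleen and 346 and 666 CPM in intact and resected blood.

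Pf4 and Ppbp belong to a cluster of CXC chemokine genes on chromosome 5 that RefSeq lists in the order Cxcl5, Ppbp, Pf4, Cxcl3, Cxcl15, Cxcl1 and Cxcl2. Of the 6 that could be tested, 5 were called higher with resection in blood (7.8% of all features), and Ppbp was the exception. Cxcl3, a neutrophil attractant, went from 0.165, 0.257 and 0.109 to 110, 331 and 330 CPM. Cxcl1 went from 18.6, 18.0 and 9.59 to 880, 2000 and 848 CPM, and the log2 fold changes were 6.34 for Cxcl1, 5.29 for Cxcl2 and 10.50 for Cxcl3, against 3.71 for Pf4. In spleen Cxcl1 (5.36), Cxcl2 (3.89) and Cxcl3 (6.16) were called higher (all features, 0.78%) while Pf4, Ppbp and Cxcl5 were not. Cxcl5 was at or under the limit of counting throughout intact blood and measured 2.99, 5.84 and 14.3 CPM in resected blood. The cluster was chosen after its values had been seen.

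**Figure D5:**
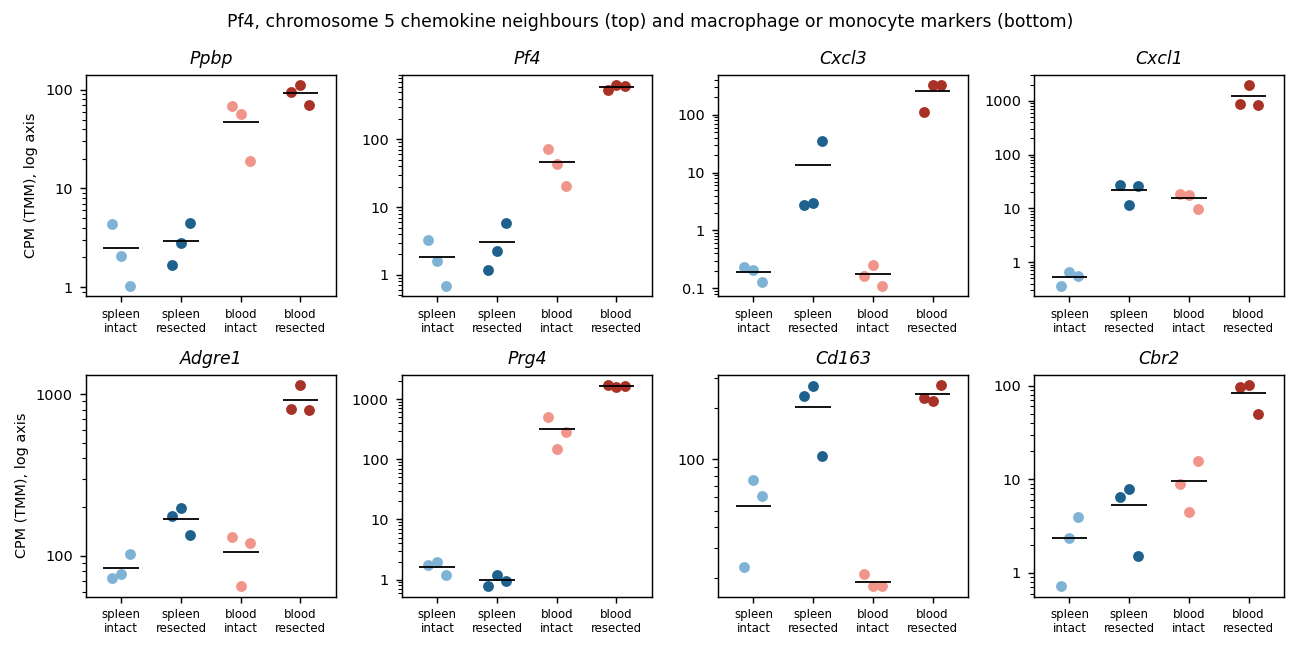
Levels of Ppbp, Pf4, Cxcl3 and Cxcl1 (top) and of Adgre1, Prg4, Cd163 and Cbr2 (bottom) in the 12 libraries (vertical axes, CPM after TMM scaling, log scale, with a range of its own for each gene; lines, group means). In resected blood Pf4, Cxcl3, Cxcl1 and the 4 marker genes lie above all 3 intact blood libraries by a wide margin, and Ppbp by a narrow one (71.0 against 67.9 CPM).

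The 10 genes varied together between libraries of the same group. With the group means removed, the correlation of each gene with the mean of the other 9 over the 12 libraries ran from 0.609 for Gp9 to 0.947 for Treml1, with Ppbp at 0.935 and Pf4 at 0.836. These points share library scaling, and intact blood libraries 1 and 3 have the widest deviations, so the values are descriptive. Among 12638 other features with a symbol and a mean of at least 1 CPM, the 5 most like the mean of the 10 genes by the same measure were Fhl1 (Pearson's r 0.990), Nrgn (0.976), Slc25a43 (0.945), Draxin (0.945) and Prokr1 (0.945). Over the libraries with the group means kept, r was 0.984 for Fhl1, 0.976 for Nrgn, 0.992 for Draxin, 0.639 for Prokr1 and -0.01 for Slc25a43, which did not separate the tissues. Nrgn, encoding the calmodulin-binding protein neurogranin, had means of 9.86 and 5.40 CPM in intact and resected spleen and 106 and 122 CPM in intact and resected blood.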

How the data were processed

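Each library came as 1 table of estimated counts, which the authors deposited without scaling to depth or length. The submitters' processing notes name STAR and GRCm39, while the counting tool is not given in the sources used here. The labels name a strand-specific DNBSEQ library, whereas the paper names an Illumina HiSeq platform for these monocytes. Unassigned transcripts (1.75% to 4.33% of a library) were left out, 25340 of 40274 accession rows were added to their gene through RefSeq GRCm38.p6, and counts were rounded. All 12 libraries entered one robust quasi-likelihood fit in edgeR 4.0.16 (R 4.3.3; filterByExpr, TMM, no covariates), with SE = |log2 fold change| divided by the square root of F. Count ratios used 1 added count. The common dispersion was 0.312. Limits cover counting error only. Scripts were tested on simulated data. The members and lists (4 platelet lists, erythroid, monocyte, neutrophil, B-cell, T-cell, red pulp macrophage, progenitor, macrophage and chemokine cluster) were chosen with earlier results of these data known. Named genes were the 10 members, at most 2 genes per list, comparison and direction with the smallest p-value, Septin5, and the 5 most alike. Others (Gata1, Gfi1b, Tbxas1, F13a1, Sparc, Thbs1, Vwf, Mmrn1, Cd5l, Ly6c2, Ccr2, Cxcl genes, the plotted markers) were named after their values were seen. Lengths for CPM per kb came from GENCODE transcripts matched to RefSeq.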

Additional observations from a re-analysis of the deposited data

How the results depend on the processing

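Alternatives were DESeq2 1.42.0, RLE factors, no low-count filter, at least 10 counts in every library, no fold limit, symbol rows only, haemoglobin left out, only the compared groups, a replicate block and each library left out. With DESeq2, 2 of the 10 genes were called for resection in blood and 1 for the difference of the resection effect, against 1 and 0. With 10 counts required in every library Gp6 dropped out, leaving 7 and 8 calls for blood against spleen. Leaving out single libraries gave 1 to 2 calls for resection in blood, 0 in spleen, 7 to 8 and 8 to 9 for blood against spleen in intact and resected animals, and 0 for the difference. The ratio of Pf4 to Ppbp then ran from 2.55 to 2.86, 0.06 to 0.50, 0.31 to 0.55 and 2.62 to 3.09 for resection in blood, in spleen, and blood against spleen in both states. Itgb3 to Itga2b ran from -0.36 to -0.12, -1.60 to -1.05, -4.70 to -4.18 and -3.60 to -3.09. The replicate block kept the counts of calls at 1, 0, 8, 9 and 0, and turned Gp6 in spleen to 0.02. Correlations of same-numbered libraries ran from -0.046 to 0.189, and 2 of 18 pairs were over the limit of 0.1 set for pairing. Both were resected spleen against resected blood, at 0.131 for library 2 and 0.189 for library 3, with 0.042 for library 1. The labels do not say whether these libraries shared mice. Leaving out single libraries moved these uncalled log2 fold changes across 0. For resection in blood they ran from -0.32 to 0.47 for Itgb3, -0.37 to 0.14 for Gp1ba and -0.17 to 0.57 for Gp6. For resection in spleen they ran from -0.10 to 1.43 for Pf4, -0.16 to 0.93 for Ppbp, -0.46 to 0.24 for Treml1 and -0.63 to 0.47 for Gp6. For the difference they ran from -0.61 to 0.28 for Itga2b, -0.13 to 0.97 for Gp1bb, -0.51 to 0.39 for Tubb1 and -0.27 to 0.83 for Gp6. The causes were not tested. Depth bears most on Gp6, whose lowest count in a spleen library was 8.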
